A study of Danio rerio with 9 samples.

Results

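Zebrafish embryos that received a morpholino against sf3b1 together with As2S2 were compared with embryos that received a control morpholino, in 3 RNA sequencing libraries each, 6 of the 9 libraries of the series. The members were chosen by the titles of the samples alone. The deposited columns used for control MO are headed wt and were matched to these titles as the remaining group. The headers name no morpholino for this group. The remaining 3 libraries, from embryos with the sf3b1 morpholino and no As2S2 (sf3b1 MO), enter the fit and are quoted where they place a gene. The embryos with sf3b1 MO + As2S2 are called As2S2 morphants, and those with the control morpholino are called control MO. A morpholino is a modified antisense oligonucleotide that blocks translation or splicing of 1 chosen RNA after injection. As2S2 is an arsenic sulfide. The stated interest of the series is the maturation of red blood cells through smad7 and TGF-beta signalling, in what its description terms an sf3b1 knockout model, whereas the sample titles name morpholinos. All samples are labelled as embryonic trunk tissue. The strain, the age of the embryos, the amount of either morpholino and the dose and timing of As2S2 are not in the labels used here. As the As2S2 morphants differ from control MO in both the morpholino target and the arsenic compound, the effects of these agents cannot be told apart in this comparison. The deposited As2S2 columns also come without counts and cover another set of genes than the other columns. Whether all 9 libraries were processed together is not stated, so a difference in processing cannot be told apart from the group either. The labels do not tell whether the 3 libraries of a group come from different clutches. A p-value here therefore reflects the spread among the sequenced libraries, which may be technical.

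Arsenic compounds bind the thiol groups of proteins and are widely used to provoke the heat shock response, in which heat shock factors switch on genes for chaperones that refold damaged proteins. SF3B1 is the largest protein of the SF3b complex, with which the U2 part of the spliceosome holds the branch point of an intron. Zebrafish embryos build muscle, skin, fin folds, retina and nervous system within days of fertilization, so that many abundant transcripts of whole tissues mark how far these tissues have differentiated. In bulk tissue, fewer cells of a type and less RNA per cell cannot be told apart.

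Values are FPKM (fragments per kilobase of a transcript, in units of library size) as deposited by the authors, given with the SD over 3 libraries. Fold changes are differences of log2(FPKM + 1) after each library was centred on its median gene. This scale understates the change of genes at low FPKM. A gene is called when its limma p-value, adjusted over all 17997 genes tested, is under 0.05. Total counts of the As2S2 libraries are not known, as no counts are given for them, and those of the control MO libraries were 25177824 to 28702980. Across genes on the log2 scale, the As2S2 morphants correlated with control MO at 0.896 to 0.899, with at least 0.982 among the As2S2 morphants and at least 0.985 within control MO. The targeted gene sf3b1 gives no check of the labels here. It was left out with smad7, jun, sp1, tal1, alas2 and the embryonic globins, because the deposited columns of these genes are in question.

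The label of trunk tissue was set against marker genes. Muscle markers were abundant in control MO, with actc1b at 8102 ± 105 and myhz2 at 479 ± 7.09 FPKM, as were the epidermal keratin gene cyt1 at 894 ± 7.44 FPKM and the notochord and cartilage collagen gene col2a1a at 191 ± 3.1 FPKM. Eye and brain markers were abundant as well. In control MO the rod opsin gene rho stood at 929 ± 49.3 FPKM, the photoreceptor regulator gene crx at 124 ± 1.23 FPKM and the forebrain and midbrain gene otx2b at 72.1 ± 2.52 FPKM. These 3 transcripts are known from the eye and brain, which the label does not name. The liver gene fabp10a, the pancreatic genes ctrb1 and cela1.5, the neutrophil and macrophage genes mpx, lyz and mpeg1.1 and the heart genes myl7, vmhc and nppa were not tested. The pancreatic gene prss1 and the endothelial gene cdh5, also among the markers chosen, are not described here. The endothelial marker kdrl is given with the endothelial genes. Against control MO, all 5 muscle markers, all 3 of notochord and cartilage and all 3 of epidermis were called lower in the As2S2 morphants, with log2 fold changes of -0.65 (mylpfa) to -2.9 (myhz2) in muscle. Of 5 eye markers 4 were lower and crx was higher. The 3 brain markers were higher, otx2b by 1.34, elavl3 by 0.72 and neurod1 by 0.19, the last of which was lower without centring. The gene apoa2, chosen as a liver marker but listed below with genes of liver and yolk, rose by 3.06. Whether it rose in liver or in yolk was not tested. The call of the liver marker tfa (log2 fold change 0.8, adjusted p = 0.047 in limma) was lost when any 1 of the 6 libraries was left out, with adjusted p-values of 0.067 to 0.12.

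Most genes differed between the As2S2 morphants and control MO. Of 17997 genes tested, 11311 were called, or 62.8%. Of all genes, 6270 (34.8%) were called higher and 5041 (28%) lower in the As2S2 morphants. A change of at least 2-fold was called in 1229 genes higher (6.83%) and 1054 genes lower (5.86%), and one of at least 4-fold in 172 higher and 168 lower. The centred values of the 6 libraries did not overlap between the groups in 12284 genes, or 68.3%. The share of calls that were higher depended on the scaling. It was 55.4% after centring and 28.6% for the FPKM as deposited, in which the median gene of the As2S2 morphants lay 0.25 below control MO on the log2 scale. With TMM scaling it was 49.4%. All directions are those after centring, relative to the median gene. Without centring, 3505 of the 17997 genes were called higher and 8736 lower. The counts of each gene list below stand against these counts and shares over all genes.

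**Figure D1:**
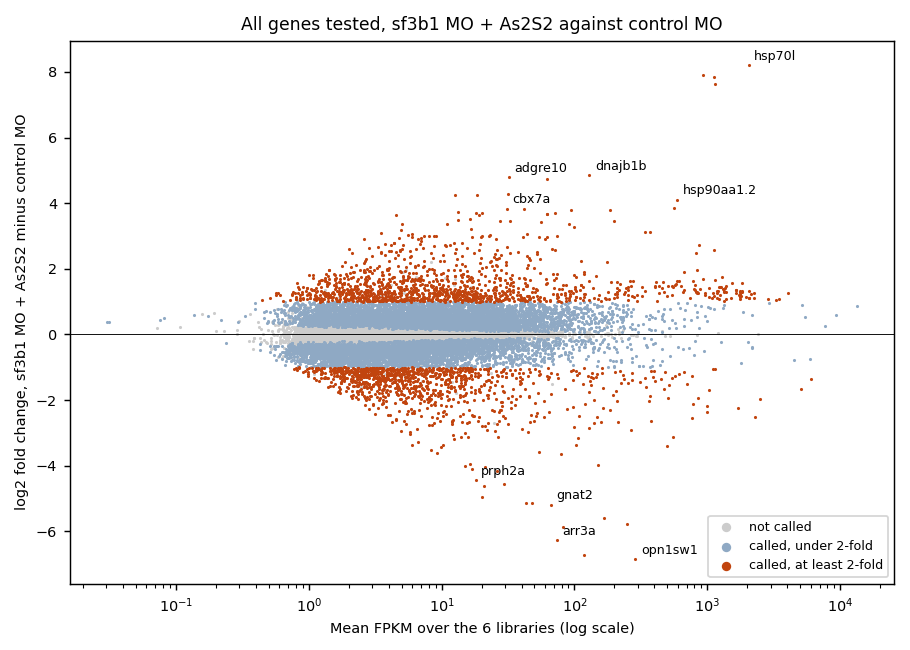
Mean FPKM over the 6 libraries compared (log scale) against the log2 fold change, As2S2 morphants minus control MO, for all 17997 genes tested. Grey points were not called, blue points were called under 2-fold and red points at least 2-fold. The hsp70 genes stand apart at the top, near a log2 fold change of 8, and the cone photoreceptor genes at the bottom, below -5.

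The largest rises were in heat shock genes. The 12 largest rises and falls were selected among genes whose centred libraries did not overlap, so their separation is no further result. The gene hsp70l, which encodes a stress-inducible Hsp70 chaperone, stood at 4086, 4044 and 4120.4 FPKM in the As2S2 morphants, against 15.6, 16.5 and 16.2 FPKM in control MO. All As2S2 values lay far above all control values (log2 fold change 8.2, SE 0.0294, limma adjusted p = 6.5e-15). The sf3b1 MO libraries stood between the other groups, at 101, 106 and 104 FPKM. Its near copies hsp70.1, hsp70.2 and hsp70.3 had 1835 ± 48.7, 2251 ± 41 and 2259 ± 37.4 FPKM in the As2S2 morphants, against 8.41 ± 0.222, 11.1 ± 0.635 and 13 ± 0.559 FPKM in control MO, with log2 fold changes of 7.9, 7.83 and 7.63. Whether these near copies shared reads was not tested, so the level of each single copy is uncertain. The co-chaperone gene dnajb1b, whose product feeds unfolded proteins to Hsp70, had 244, 246 and 259 FPKM in the As2S2 morphants, against 9.66, 9.69 and 9.74 FPKM in control MO. Here sf3b1 MO, at 11.7 ± 0.222 FPKM, lay close to control MO (log2 fold change 4.85, SE 0.037, limma adjusted p = 7.7e-13). The Hsp110 gene hsph1, a nucleotide exchange factor of Hsp70, rose to 35.8 ± 1.94 FPKM in the As2S2 morphants, against 1.36 ± 0.0839 FPKM in control MO, and the inducible Hsp90 gene hsp90aa1.2 rose to 1109 ± 19 FPKM in the As2S2 morphants, against 78.1 ± 1.71 FPKM in control MO.

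Of the 12 largest rises, 5 were in genes outside these families. The adhesion receptor gene adgre10 had 59.9, 65.2 and 61.2 FPKM in the As2S2 morphants, against 1.61, 2.15 and 1.64 FPKM in control MO. No library of one group reached those of the other (log2 fold change 4.79, SE 0.0902, limma adjusted p = 3.3e-10). The antifreeze protein gene afp4 had 24.6 ± 0.777 FPKM in the As2S2 morphants and 0.653 ± 0.225 FPKM in control MO. The gene zgc:158463, for which no function is given, had 1039 ± 19.5 FPKM in the As2S2 morphants and 87.7 ± 4.44 FPKM in control MO, with sf3b1 MO between them at 239 ± 58.4 FPKM. The apolipoprotein gene apoa1a and the Polycomb gene cbx7a followed, both with a log2 fold change of 3.83.

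Cone photoreceptor genes made up most of the 12 largest falls. Next to them stood si:ch211-188p14.3, si:ch211-188p14.2 and si:ch211-188p14.4, 3 genes with neighbouring clone names and no given function. The first of these was listed at 0, 0.268 and 0 FPKM in the As2S2 morphants, against 43.9, 35.8 and 41.2 FPKM in control MO. In sf3b1 MO the 3 genes averaged 8.49 ± 1.46, 8.65 ± 1.02 and 17.4 ± 1.9 FPKM, below control MO and above the As2S2 morphants.

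**Figure D2:**
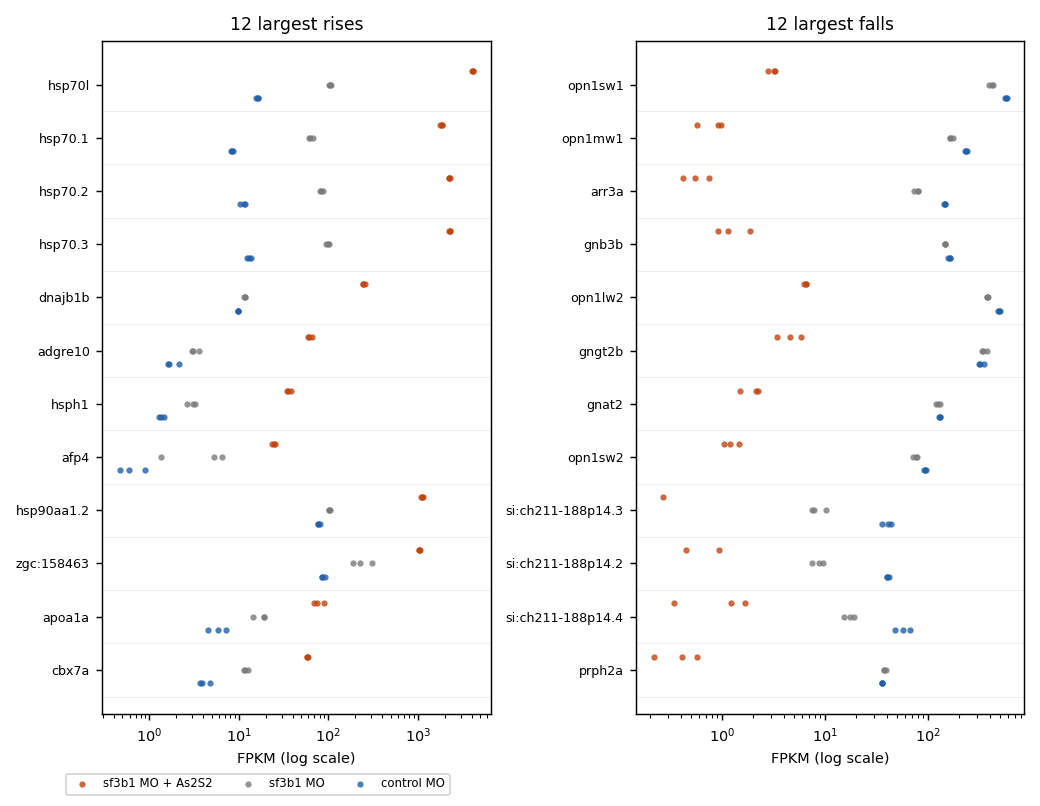
FPKM (log scale) of the 12 largest rises and the 12 largest falls in each of the 9 libraries, with the As2S2 morphants in red, sf3b1 MO in grey and control MO in blue. The genes were selected for groups that do not overlap after centring. Points of the As2S2 morphants accordingly lie apart from those of control MO in each of the 24 genes. The grey points lie nearer to control MO in most of the cone genes. Values of 0 cannot be drawn on this scale and are missing for si:ch211-188p14.3 and si:ch211-188p14.2.

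Chaperone genes rose beyond the inducible Hsp70 copies. Of 16 Hsp70 genes tested, 12 were higher and 2 lower, with a median log2 fold change of 2.3, against 0.05 over all genes. The members that fell were hsc70, at 3.71 ± 0.69 FPKM in the As2S2 morphants and 49.5 ± 0.394 FPKM in control MO, and hspa13, at 2.0 ± 0.459 FPKM in the As2S2 morphants and 4.04 ± 0.0903 FPKM in control MO. Of 34 genes of Hsp90, co-chaperones and heat shock factors 21 were higher and 4 lower, with a median of 0.33, and 15 and 10 without centring. In this list hsp90aa1.1, the Hsp90 of developing muscle, rose by a log2 fold change of 2.04 and bag3, a co-chaperone of Hsp70 in selective autophagy, by 1.77. The immunophilin gene fkbp5, a co-chaperone of steroid receptors and a target of glucocorticoids, fell to 6.14 ± 0.708 FPKM in the As2S2 morphants, against 41.9 ± 0.285 FPKM in control MO.

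Small heat shock proteins and mitochondrial chaperonins were higher more often than lower. Of 10 tested, 7 were higher and 2 lower, with a median of 0.52, or 5 higher and 2 lower without centring. The gene hspb1, which encodes Hsp27, had 113, 117 and 112 FPKM in the As2S2 morphants, against 9.32, 9.34 and 11.4 FPKM in control MO, with no overlap of the groups (log2 fold change 3.68, SE 0.0763, limma adjusted p = 5.9e-10). In sf3b1 MO it averaged 10.1 ± 0.681 FPKM. The collagen chaperone gene serpinh1b rose by 1.37 on the log2 scale, while hspb6, a small heat shock protein of muscle, fell to 2.08 ± 0.455 FPKM in the As2S2 morphants, against 15.6 ± 1.08 FPKM in control MO. The cytosolic chaperonin CCT, which folds actin and tubulin, was higher throughout: all 9 rows tested, with cct2 listed under 2 identifiers, were called higher, with a median of 0.72. Without centring 8 of the 9 were higher. The subunit gene cct8 stood at 126 ± 4.3 FPKM in the As2S2 morphants and 61.3 ± 1.55 FPKM in control MO.

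Proteasome genes were lower more often than higher. Of 41 genes of the proteasome, which degrades ubiquitin-tagged proteins, 7 were higher and 24 lower, with a median of -0.23, or 2 higher and 34 lower without centring. The gene psmb5, a catalytic subunit of the core, had 6.64, 6.26 and 8.26 FPKM in the As2S2 morphants, against 18.6, 20 and 22.2 FPKM in control MO. The groups did not overlap (log2 fold change -1.11, SE 0.10, limma adjusted p = 1.2e-05). The lid subunit gene psmd12 stood at 18.7 ± 1.18 FPKM in the As2S2 morphants and 42 ± 1.63 FPKM in control MO. The ATPase subunit gene psmc4 rose by 1.16.

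Genes of the integrated stress response, in which ATF4 and its partners answer blocked translation initiation, were mostly higher. Of 25 tested, 16 were higher and 4 lower, with a median of 0.48, or 13 higher and 7 lower without centring. The phosphatase regulator gene ppp1r15a, known as GADD34 and a brake on this response, had 341, 339 and 343 FPKM in the As2S2 morphants, against 27.7, 30.3 and 30.7 FPKM in control MO. The lowest As2S2 library lay well above the highest control library (log2 fold change 3.78, SE 0.0404, limma adjusted p = 9.2e-12), and sf3b1 MO stood at 59 ± 2.11 FPKM. The transcription factor gene atf3 rose to 40 ± 0.642 FPKM in the As2S2 morphants, against 5.32 ± 0.501 FPKM in control MO, and cebpb to 40.7 ± 2.11 FPKM in the As2S2 morphants, against 10.8 ± 0.776 FPKM in control MO. The folate enzyme gene mthfd2, a target of ATF4 in mammals, moved the other way with a log2 fold change of -0.42.

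Chaperones of the endoplasmic reticulum rose in part. Of 29 tested, 15 were higher and 6 lower after centring, with a median of 0.25, and 6 higher and 10 lower without it, where the median was -0.04. The main Hsp70 of this compartment, hspa5 or BiP, stood at 312 ± 4.26 FPKM in the As2S2 morphants and 162 ± 5.67 FPKM in control MO. Its groups did not overlap (log2 fold change 1.24, SE 0.0338, limma adjusted p = 3.2e-09). The degradation factor gene herpud1 rose by 1.78 and the Hsp90 gene of the compartment, hsp90b1, by 1.04.

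Oxidative and metal stress genes gave both directions. Of 37 tested, 12 (32.4%) were higher and 14 (37.8%) lower, against 34.8% and 28% of all genes, with a median of 0.00, or 6 higher and 21 lower without centring. The autophagy receptor gene sqstm1 and the glutathione reductase gene gsr rose by 1.45 and 1.42. The heme oxygenase gene hmox1a, added after its values were seen and not picked by the rule for naming genes, rose by 1.25. The quinone reductase gene nqo1, a classical target of the oxidant sensor Nrf2, fell to 2.43 ± 0.824 FPKM in the As2S2 morphants, against 13.1 ± 0.405 FPKM in control MO. Mitochondrial superoxide dismutase, sod2, had 11.8, 11.9 and 11.2 FPKM in the As2S2 morphants, against 40.5, 41.7 and 39.4 FPKM in control MO, so that every As2S2 library lay below every control library. The metallothionein gene mt2, which encodes a small metal-binding protein, stood at 11.4 ± 2.19 FPKM in the As2S2 morphants, 35.4 ± 9.1 FPKM in sf3b1 MO and 9.68 ± 2.43 FPKM in control MO and was not called against control MO (adjusted p = 0.053 in limma). It was called without replicate 3 of the As2S2 morphants (adjusted p = 0.043) or of control MO (adjusted p = 0.018), with 0.1 as pseudocount (adjusted p = 0.042), without a filter on low values (adjusted p = 0.045) and in a fit of the 6 libraries alone (adjusted p = 0.039).

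Immediate early genes moved in opposite directions. Of 28 tested, 19 were higher and 6 lower, with a median of 0.85, or 16 higher and 9 lower without centring. Among AP-1 genes, fosl1a rose to 8.95 ± 0.258 FPKM in the As2S2 morphants, against 0.614 ± 0.229 FPKM in control MO, fosab to 74.2 ± 1.84 FPKM in the As2S2 morphants, against 17.2 ± 0.719 FPKM in control MO, and junbb by 1.54 on the log2 scale. Some early genes outside AP-1 fell: the nuclear receptor gene nr4a1 stood at 0.597 ± 0.0926 FPKM in the As2S2 morphants and 8.93 ± 0.368 FPKM in control MO, and egr1, a zinc finger factor induced by growth factors, at 5.73 ± 0.673 FPKM in the As2S2 morphants and 23.3 ± 0.367 FPKM in control MO. The MAP kinase phosphatase gene dusp6, a readout of FGF signalling in embryos, fell by 1.4, whereas dusp1 rose by 1.4. Inflammatory signalling genes were higher in 12 of 15 cases, and the others were not called. Without centring, 7 were higher and 1 lower. The chemokine gene cxcl18b had 8.22 ± 1.03 FPKM in the As2S2 morphants and 1.12 ± 0.171 FPKM in control MO, and socs3a, a feedback inhibitor of cytokine receptors, rose by 1.34.

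**Figure D3:**
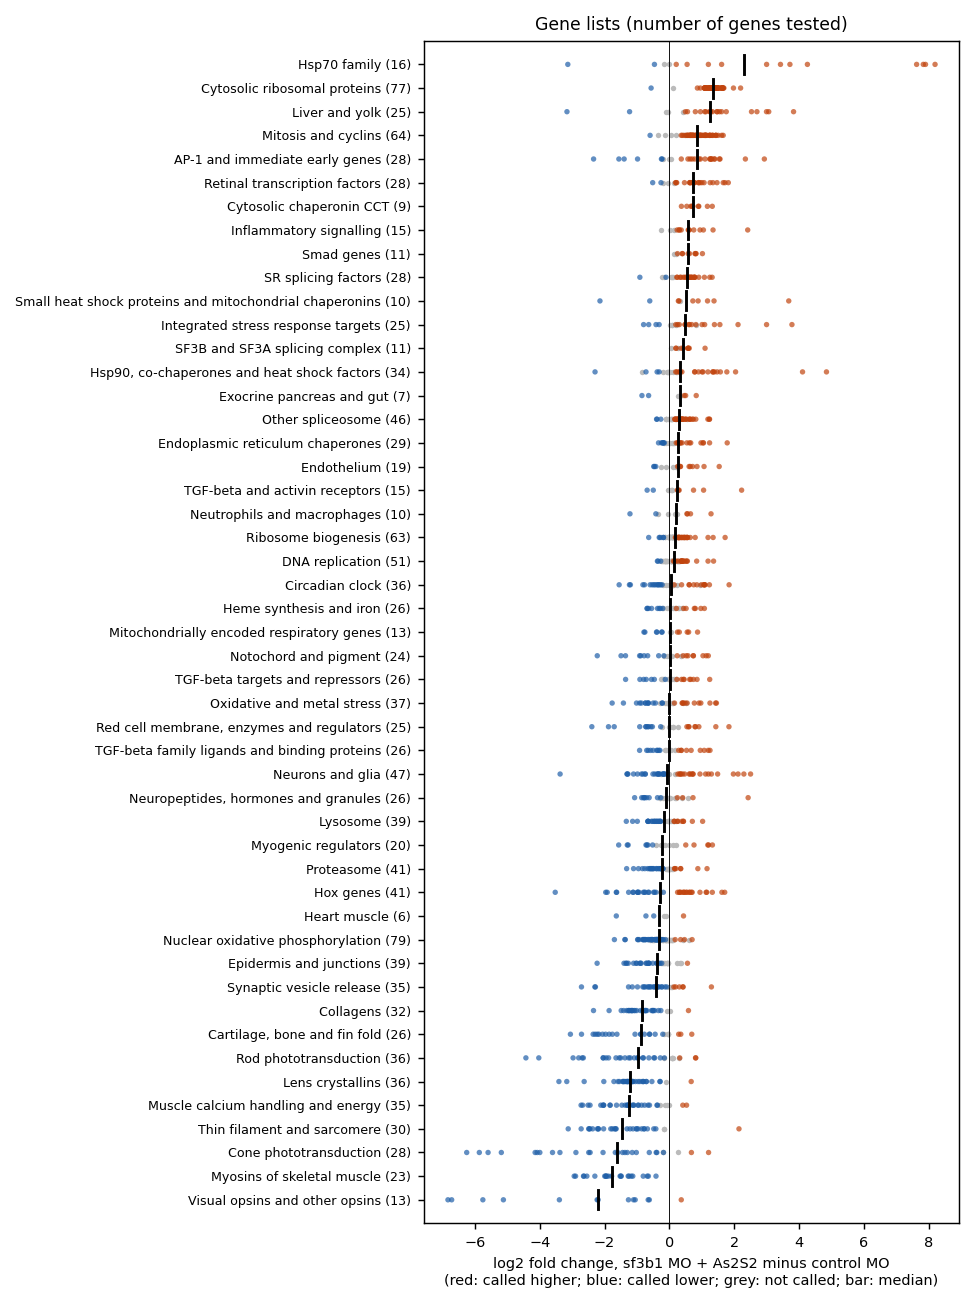
Log2 fold change, As2S2 morphants minus control MO, of each tested member of 49 gene lists, with the number of members tested in parentheses. Points are genes, red where called higher, blue where called lower and grey where not called, and the black bar is the list's median. Medians run from -2.2 for opsins and -1.79 for muscle myosins to 1.33 for ribosomal proteins and 2.3 for the Hsp70 family.

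Most genes of phototransduction and lens fell, while most genes of transcription factors known from the retina rose. Whether the latter rose in the retina or in other tissue was not tested. The visual opsins are the light receptors of rods and cones. The ultraviolet cone opsin gene opn1sw1 had 3.28, 2.79 and 3.21 FPKM in the As2S2 morphants, against 560.3, 572 and 585 FPKM in control MO. The groups were far apart (log2 fold change -6.84, SE 0.0483, limma adjusted p = 4.3e-13), and sf3b1 MO, at 416, 430.0 and 396 FPKM, lay nearer to control MO. The green, red and blue cone opsin genes opn1mw1, opn1lw2 and opn1sw2 averaged 0.822 ± 0.222, 6.45 ± 0.12 and 1.23 ± 0.201 FPKM in the As2S2 morphants, against 234 ± 4.15, 495 ± 8.5 and 94.4 ± 1.96 FPKM in control MO. Rod opsin, rho, had 68.3, 71.8 and 72.3 FPKM in the As2S2 morphants, against 893, 909 and 985 FPKM in control MO. Its log2 fold change was -3.4. Of 13 opsin genes tested, 12 were lower and 1 higher. The member that rose was parapinopsinb, a pineal opsin, at 3.5 ± 0.0976 FPKM in the As2S2 morphants and 3.3 ± 0.339 FPKM in control MO, and its call was lost without centring. Whether similar opsins shared reads was not tested.

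Most genes of the proteins that relay the light signal fell with the opsin genes. Of 28 genes of cone phototransduction 24 were lower and 2 higher, with a median of -1.63. The 2 higher genes were gngt2a and rgs9b, with log2 fold changes of 1.21 and 0.68. The cone arrestin gene arr3a, which shuts off opsin, had 0.746, 0.541 and 0.422 FPKM in the As2S2 morphants, against 144, 146 and 148 FPKM in control MO, without overlap. The transducin subunit genes gnat2, gnb3b and gngt2b averaged 1.95 ± 0.385, 1.31 ± 0.504 and 4.63 ± 1.24 FPKM in the As2S2 morphants, 126 ± 4.65, 148 ± 0.665 and 352 ± 22 FPKM in sf3b1 MO and 130.3 ± 2.23, 162 ± 3.39 and 329 ± 18.2 FPKM in control MO. The sf3b1 MO values of these genes thus lay close to control MO. Of 36 genes of rod phototransduction and outer segments 27 were lower and 3 higher, with a median of -0.98. The outer segment gene prph2a stood at 0.4 ± 0.18 FPKM in the As2S2 morphants and 35.9 ± 0.155 FPKM in control MO, and the rod transducin gene gnat1 at 3.68 ± 0.914 FPKM in the As2S2 morphants and 38.6 ± 2.07 FPKM in control MO. The rod regulator gene nr2e3 was among the 3 that rose, with a log2 fold change of 0.81.

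Lens transcripts were lower as well. Of 36 genes of crystallins and lens membrane proteins 34 were lower and 1 higher, with a median of -1.22. Members summed to 3688 to 3819.8 FPKM in the As2S2 morphants, against 10901 to 11221 FPKM in control MO. The lens membrane gene lim2.1 had 1.19, 0.687 and 0 FPKM in the As2S2 morphants, against 19.7, 19.8 and 18.1 FPKM in control MO, so that the groups stood apart (log2 fold change -3.41, SE 0.23, limma adjusted p = 1.3e-06). The water channel gene mipb fell by 2.63 and the crystallin gene cryaa, a small heat shock protein of the lens, fell to 3.13 ± 0.233 FPKM in the As2S2 morphants, against 8.55 ± 0.391 FPKM in control MO.

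Genes of transcription factors known from the retina went the other way. Of 28 tested, 23 were higher and 2 lower, with a median of 0.74, and 20 higher and 5 lower without centring. The retinal ganglion cell factor gene atoh7 had 26.4, 23.7 and 25.4 FPKM in the As2S2 morphants, against 7.22, 9.29 and 10.1 FPKM in control MO. No As2S2 library came near the control libraries (log2 fold change 1.71, SE 0.17, limma adjusted p = 2.2e-05). The genes ptf1a, needed for horizontal and amacrine cells, and foxn4, which acts before it in the same progenitors in mice, stood at 14 ± 2.03 and 40.2 ± 0.887 FPKM in the As2S2 morphants and at 4.21 ± 0.23 and 15 ± 0.641 FPKM in control MO. The photoreceptor regulator gene crx, which activates many of the genes that fell, had 159, 151 and 155 FPKM in the As2S2 morphants, against 123, 123 and 125 FPKM in control MO. It was therefore higher in all 3 As2S2 libraries while the opsins were lower (log2 fold change 0.62, SE 0.0359, limma adjusted p = 4.7e-07).

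**Figure D4:**
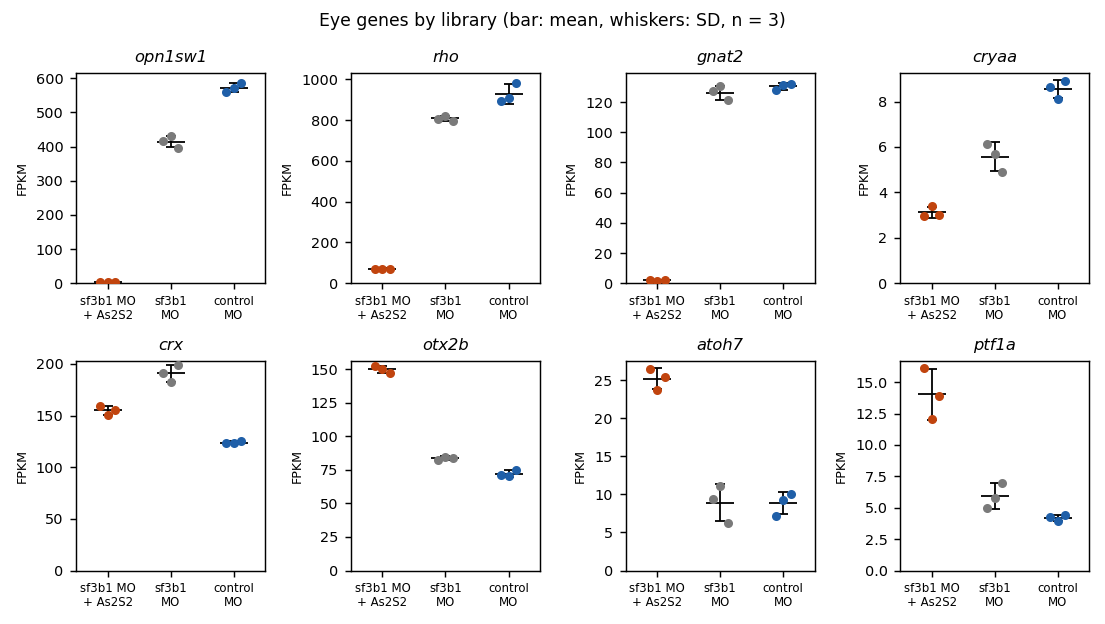
FPKM of 8 eye genes in each library, with the As2S2 morphants left, sf3b1 MO in the middle and control MO right; bars are means and whiskers SD over 3 libraries. The differentiation genes opn1sw1, rho, gnat2 and cryaa are lowest in the As2S2 morphants, and the regulators otx2b, atoh7 and ptf1a are highest there. Of these regulators, otx2b also served as a brain marker, and the tissue in which they rose was not tested. The crx values of the As2S2 morphants lie between sf3b1 MO and control MO.

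Skeletal muscle transcripts were lower across the sarcomere. Myosin is the motor of the thick filament, and all 23 skeletal myosin genes tested were called lower, with a median of -1.79 and a range of -2.94 to -0.42. The fast myosin gene myhc4 had 4.27, 4.4 and 3.45 FPKM in the As2S2 morphants, against 48.3, 41.6 and 49.7 FPKM in control MO. The libraries of the groups were well separated (log2 fold change -2.94, SE 0.0881, limma adjusted p = 5.9e-09). The slow myosin gene smyhc1 fell by 2.0, so that fast and slow fibre myosins both fell. Near copies among the fast myosin genes may share reads, which was not tested.

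Of 30 genes of the thin filament and the rest of the sarcomere 27 were lower and 1 higher. The calcium sensor gene of fast fibres, tnnc2.2, stood at 93.9 ± 14.7 FPKM in the As2S2 morphants, 352 ± 64.4 FPKM in sf3b1 MO and 1007 ± 9.59 FPKM in control MO. Of these groups the As2S2 morphants were lowest, and all of their libraries lay below those of control MO (log2 fold change -3.13, SE 0.14, limma adjusted p = 7.4e-08). The Z-disc genes ldb3a and actn3b had log2 fold changes of -2.73 and -2.49. The exception was tcap, which encodes the titin cap of the Z-disc, with 20.3, 23.2 and 24.7 FPKM in the As2S2 morphants, against 5.12, 6.27 and 5.37 FPKM in control MO. Its 3 As2S2 values lay above its control values, opposite to the 27 members that fell (log2 fold change 2.14, SE 0.0873, limma adjusted p = 4.2e-08). Genes of calcium handling and energy supply in muscle were lower in 29 of 35 cases and higher in 2. The calcium pump gene atp2a1l fell by 2.68, and the calcium buffer gene pvalb8 to 3.66 ± 0.203 FPKM in the As2S2 morphants, against 30.2 ± 0.638 FPKM in control MO.

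Regulators of the muscle lineage gave both directions. Of 20 tested, 5 (25%) were higher and 7 (35%) lower, against 34.8% and 28% of all genes, with a median of -0.22. Without centring, 4 were higher and 12 lower. The progenitor genes pax3a and pax7b rose by 1.21 and 0.76, and prdm1a, which specifies slow fibres, by 1.32. Whether these genes rose in muscle or in other tissue was not tested. Genes acting in fibres fell, with stac3, part of excitation and contraction coupling, at -1.57, the myosin chaperone partner smyd1a at -1.3 and the regulator mef2ca at -1.28. Heart muscle was represented by 6 tested genes, of which 3 were lower and 1 higher, and 4 were lower without centring.

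Extracellular matrix genes were mostly lower. Of 32 collagen genes 29 were lower and 1 higher, with a median of -0.86. The hemidesmosome collagen gene col17a1a, which anchors basal skin cells, had 2.19, 2.06 and 2.17 FPKM in the As2S2 morphants, against 18.5, 18.7 and 18.6 FPKM in control MO. The groups did not meet (log2 fold change -2.34, SE 0.073, limma adjusted p = 7.2e-09), and sf3b1 MO, at 2.6 ± 0.283 FPKM, was near the As2S2 morphants. The collagen gene col10a1a of maturing cartilage and bone cells stood at 0.323 ± 0.147 FPKM in the As2S2 morphants and 4.89 ± 0.37 FPKM in control MO. Of 26 genes of cartilage, bone and fin fold 19 were lower and 3 higher, or 23 lower and 1 higher without centring. The actinodin genes and2 and and3, which encode the fibres of the fish fin fold, had 1.34 ± 0.0984 and 2.12 ± 0.798 FPKM in the As2S2 morphants, against 23 ± 2.05 and 18.3 ± 1.45 FPKM in control MO. The cartilage matrix genes ucmab and matn3a had log2 fold changes of -2.72 and -2.29, while sox9b, which encodes a regulator of cartilage, rose by 0.69.

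In the epidermis, most genes tested fell, keratin genes by different amounts. Of 39 genes of epidermis and cell junctions 23 were lower and 1 higher, with a median of -0.39. The keratin gene krt5 had 44.2, 43.7 and 55.7 FPKM in the As2S2 morphants, against 269, 289.6 and 279 FPKM in control MO, a clear separation of the groups (log2 fold change -2.23, SE 0.12, limma adjusted p = 2.8e-07). The keratin genes cyt1 and krt4 had log2 fold changes of -0.4 and -0.24 and stood at 553 ± 6.01 and 109.5 ± 3.67 FPKM in the As2S2 morphants, 237 ± 3.65 and 51.3 ± 4.46 FPKM in sf3b1 MO and 894 ± 7.44 and 159 ± 6.76 FPKM in control MO. Both were thus lowest in sf3b1 MO. The difference between keratins was not tested itself. Of 24 notochord and pigment genes 9 (37.5%) were higher and 9 (37.5%) lower, against 34.8% and 28% of all genes, or 8 and 14 without centring. The notochord and cartilage proteoglycan gene epyc fell by 2.23, and the melanin genes slc24a5 and slc45a2 rose by 1.13 and 1.03. The largest rise of the list was in shha, at 1.2. Its members ptgdsb.1, ptgdsb.2 and aox5 had log2 fold changes of -1.5, -1.36 and -0.92. The tissue in which these genes changed was not tested.

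In the nervous system, most genes of synaptic vesicle release fell. Of 35 genes of synaptic vesicle release 25 were lower and 6 higher, with a median of -0.41, or 30 lower and 2 higher without centring. The synaptic vesicle gene sypa had 30.5, 31.4 and 30.5 FPKM in the As2S2 morphants, against 93.8, 91.3 and 93 FPKM in control MO. The groups were distinct (log2 fold change -1.26, SE 0.0331, limma adjusted p = 2.4e-09). The genes syt5a, sv2ba and cplx4a fell with log2 fold changes of -2.72, -2.3 and -2.29. The last encodes a complexin of retinal ribbon synapses in mammals. These genes averaged 0.424 ± 0.144, 1.19 ± 0.0886 and 3.95 ± 0.732 FPKM in the As2S2 morphants, 10 ± 0.872, 12.1 ± 0.428 and 31.8 ± 0.562 FPKM in sf3b1 MO and 10.5 ± 0.859, 12.3 ± 0.829 and 28.4 ± 1.0 FPKM in control MO, so that sf3b1 MO was close to control MO.

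The list of neurons and glia held 20 (42.6%) higher and 22 (46.8%) lower genes of 47, against 34.8% and 28% of all genes, or 15 and 26 without centring. The proneural gene neurog1, which commits progenitors to the neuronal fate, had 64, 64.9 and 59.3 FPKM in the As2S2 morphants, against 12.1, 13 and 13.3 FPKM in control MO. All 3 As2S2 values exceeded the control values by a wide margin (log2 fold change 2.5, SE 0.0502, limma adjusted p = 4.8e-10). The Notch target gene her4.1 and the proneural gene ascl1a rose to 88.3 ± 9.2 and 43.2 ± 0.435 FPKM in the As2S2 morphants, against 21.2 ± 0.172 and 12.8 ± 0.527 FPKM in control MO, and the early neuron gene elavl3 by 0.72. The myelin gene mbpa had 0.88, 0.49 and 0.565 FPKM in the As2S2 morphants, against 19.2, 18.2 and 22.3 FPKM in control MO. As2S2 libraries stood below 1 FPKM and control libraries far above it (log2 fold change -3.38, SE 0.10, limma adjusted p = 5.8e-09). The glial filament gene gfap fell to 71.9 ± 2.42 FPKM in the As2S2 morphants, against 216 ± 2.45 FPKM in control MO, and plp1b, also of myelin, had a log2 fold change of -1.31. Of 26 genes of neuropeptides, hormones and granules 4 (15.4%) were higher and 9 (34.6%) lower, against 34.8% and 28% of all genes. Without centring, 2 were higher and 17 lower. The peptide processing gene cpe rose to 46.1 ± 1.13 FPKM in the As2S2 morphants, against 9.77 ± 0.693 FPKM in control MO, but stood at 56.5 ± 1.51 FPKM in sf3b1 MO, while the secretory granule gene chga fell by 0.77.

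Genes of liver and yolk metabolism rose, above all apolipoproteins, which carry lipid out of the yolk and in plasma. Of 25 tested, 20 were higher and 2 lower, with a median of 1.26, and 17 and 4 without centring. The gene apoa2 had 78.6, 77.3 and 77.4 FPKM in the As2S2 morphants, against 9.69, 11.2 and 10.9 FPKM in control MO. The As2S2 values all lay well above the control values (log2 fold change 3.06, SE 0.0658, limma adjusted p = 7.4e-10). The genes apoa1a and apoea averaged 78 ± 9.82 and 35.5 ± 0.626 FPKM in the As2S2 morphants, 17.6 ± 2.74 and 4.8 ± 0.453 FPKM in sf3b1 MO and 5.87 ± 1.3 and 4.68 ± 1.03 FPKM in control MO, and the fatty acid carrier gene fabp1b.1 rose by 2.7. The retinol carrier gene rbp4, secreted by liver and yolk layer, moved the other way, at 17 ± 1.68 FPKM in the As2S2 morphants, 38.3 ± 3.0 FPKM in sf3b1 MO and 196 ± 4.65 FPKM in control MO. Of 7 genes of exocrine pancreas and gut 3 (42.9%) were higher and 2 (28.6%) lower, against 34.8% and 28% of all genes. Without centring, 1 was higher and 2 lower.

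Cell division genes were higher almost throughout. Of 64 genes of mitosis and cyclins 58 were higher and 1 lower, with a median of 0.86, and 54 and 3 without centring. The spindle checkpoint kinase gene ttk had 21.6, 19.2 and 21.8 FPKM in the As2S2 morphants, against 7.66, 7.87 and 7.83 FPKM in control MO. The groups did not overlap, and sf3b1 MO, at 7.83 ± 0.628 FPKM, was close to control MO (log2 fold change 1.61, SE 0.068, limma adjusted p = 5.5e-08). The condensin genes ncaph and ncapg, whose products compact mitotic chromosomes, rose by 1.66 and 1.44. The gene that fell was cdk4, a kinase of the G1 phase, with 4.92 ± 0.541 FPKM in the As2S2 morphants and 9.98 ± 0.748 FPKM in control MO. Genes of DNA replication gave no single direction across scalings. After centring 19 of 51 (37.3%) were higher and 3 (5.88%) lower, against 34.8% and 28% of all genes. Without centring 3 were higher and 21 lower. In this list the topoisomerase gene top2a, also a mitotic gene, rose by 1.19 and the helicase gene mcm7 by 0.84.

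Cytosolic ribosomal proteins rose together. Of 77 genes 75 were higher and 1 lower, 73 of them at least 2-fold higher, with a median of 1.33 and of 1.03 without centring. The stalk protein gene rplp0 had 5226, 5435 and 5333 FPKM in the As2S2 morphants, against 2715, 2719 and 2770.5 FPKM in control MO, with all As2S2 libraries above all control libraries (log2 fold change 1.26, SE 0.0555, limma adjusted p = 7.3e-08). The gene rpl5b stood at 1269 ± 2.02 FPKM in the As2S2 morphants, 696 ± 10.5 FPKM in sf3b1 MO and 395 ± 4.92 FPKM in control MO. The paralogue rps8b was the member that fell, at 2.41 ± 0.135 FPKM in the As2S2 morphants and 5.25 ± 1.01 FPKM in control MO. Ribosome biogenesis, the making of ribosomes in the nucleolus, gave no single direction across scalings: 30 of 63 were higher and 5 lower after centring, and 12 higher and 20 lower without it. The nucleolar helicase gene ddx21 rose to 106 ± 4.92 FPKM in the As2S2 morphants, against 38.8 ± 0.443 FPKM in control MO.

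Splicing genes, the machinery of the morpholino target, were mostly higher after centring. Of 11 genes of the SF3B and SF3A complexes, sf3b1 not among them, 9 were higher and the others not called, and 5 were higher and 1 lower without centring. The gene phf5a, which encodes the SF3b protein next to SF3B1 at the branch point, had 17.2, 20.2 and 15.7 FPKM in the As2S2 morphants, against 9.58, 9.36 and 10.1 FPKM in control MO. Each As2S2 library lay above each control library (log2 fold change 1.1, SE 0.0927, limma adjusted p = 6.2e-06), and sf3b1 MO stood at 18.7 ± 1.66 FPKM. Of 28 rows for SR proteins and their kinases, which select exons, 21 were higher and 2 lower, with 16 and 6 without centring. This list holds 27 gene symbols, so at least 1 stood under more than 1 identifier. The SR protein gene srsf6b stood at 159 ± 6.42 FPKM in the As2S2 morphants, 115 ± 2.39 FPKM in sf3b1 MO and 81.9 ± 0.935 FPKM in control MO and the kinase gene clk2a rose by 1.32, while the kinase gene srpk1a fell by 0.91. Of 46 other spliceosome genes 30 were higher and 3 lower after centring, and 11 and 11 without it. The core snRNP gene snrpb rose by 1.19. FPKM per gene do not show how introns were spliced, which was not analysed here.

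In TGF-beta signalling, ligands bind paired receptor kinases that phosphorylate Smad proteins, and smad7, the named interest of the series, inhibits the receptors but was left out. Of 26 genes of ligands and their binding proteins 9 (34.6%) were higher and 9 (34.6%) lower, against 34.8% and 28% of all genes. Their median was -0.01, and 6 were higher and 13 lower without centring. The activin subunit gene inhbb and the activin inhibitor gene fsta rose by 1.07 and 0.95, while tgfb3 fell to 7.31 ± 0.981 FPKM in the As2S2 morphants, against 14.2 ± 0.479 FPKM in control MO. Of 15 receptors 7 were higher and 2 lower after centring, and 3 and 5 without it. The type II activin receptor gene acvr2ba had 11.6, 11.5 and 13.6 FPKM in the As2S2 morphants, against 3.33, 2.14 and 2.04 FPKM in control MO. The As2S2 libraries lay above all others, and sf3b1 MO, at 1.44, 2.09 and 0.876 FPKM, overlapped with control MO (log2 fold change 2.23, SE 0.19, limma adjusted p = 8e-06). The type II TGF-beta receptor gene tgfbr2b fell by 0.69.

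Among the 11 Smad genes tested, 9 were higher and the others not called, with a median of 0.58, and 4 were higher without centring. The shared partner gene smad4a had 14, 14.6 and 12.9 FPKM in the As2S2 morphants, against 10.1, 9.14 and 9.36 FPKM in control MO, with As2S2 libraries above control libraries (log2 fold change 0.79, SE 0.0826, limma adjusted p = 2.8e-05). The receptor-activated gene smad3a and the inhibitor gene smad6a rose by 1.02 and 0.82. Their sf3b1 MO means, 1.26 ± 0.108 and 3.76 ± 0.713 FPKM, lay below control MO, at 1.87 ± 0.188 and 6.25 ± 0.605 FPKM. Of 26 TGF-beta targets and repressors 9 (34.6%) were higher and 7 (26.9%) lower, against 34.8% and 28% of all genes. Without centring, 6 were higher and 14 lower. The secreted matrix signalling gene ccn1 stood at 6.75 ± 0.25 FPKM in the As2S2 morphants and 4.7 ± 0.22 FPKM in control MO, whereas the matrix gene postnb, also made in fins and connective tissue, stood at 29.9 ± 0.536 FPKM in the As2S2 morphants, 28.3 ± 0.242 FPKM in sf3b1 MO and 95.9 ± 0.857 FPKM in control MO.

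Red cell genes, the tissue named in the purpose of the series, gave no common direction. The globins and alas2 were left out. Of 25 genes of red cell membrane, enzymes and regulators 8 (32%) were higher and 11 (44%) lower, against 34.8% and 28% of all genes. The median was -0.01, and 8 were higher and 14 lower without centring. The largest fall of the list was in tmod4, at 13.4 ± 0.249 FPKM in the As2S2 morphants and 91.8 ± 3.1 FPKM in control MO (log2 fold change -2.4). Whether tmod4 fell in red cells or in muscle was not tested. The membrane protein gene rhag of the Rh complex had 3.45, 3.25 and 3.36 FPKM in the As2S2 morphants, against 18.4, 19.2 and 18.6 FPKM in control MO. It was lower in every As2S2 library (log2 fold change -1.88, SE 0.0622, limma adjusted p = 1.1e-08). The membrane anchor gene ank1a, which muscle also expresses in mammals, fell by 1.71, while add2, a gene of the membrane skeleton also active in neurons, rose by 1.84. The master regulator gata1a stood at 12.5 ± 0.611 FPKM in the As2S2 morphants, 11.2 ± 1.11 FPKM in sf3b1 MO and 14.5 ± 1.87 FPKM in control MO and was not called (adjusted p = 0.36 in limma). The carbonic anhydrase gene cahz fell by 0.57.

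Of 26 genes of heme synthesis and iron 7 (26.9%) were higher and 8 (30.8%) lower, against 34.8% and 28% of all genes. Without centring, 5 were higher and 15 lower. Ferritins, which store iron, were among those higher: fthl27 stood at 236 ± 6.82 FPKM in the As2S2 morphants, 294 ± 17.9 FPKM in sf3b1 MO and 148 ± 2.73 FPKM in control MO. The ferritin gene fthl31 rose by 1.08 against control MO, but was lower than in sf3b1 MO (log2 fold change -0.94). It stood at 28.6 ± 2.62 FPKM in the As2S2 morphants, 65.3 ± 6.98 FPKM in sf3b1 MO and 16.2 ± 1.58 FPKM in control MO. The gene flvcr1, described as a heme exporter, fell by 0.69. Endothelial genes were higher in 10 of 19 cases and lower in 3 after centring, or 6 and 5 without it. The tight junction gene cldn5a of brain vessels, which is also made in the neural tube of fish, rose to 13.9 ± 1.35 FPKM in the As2S2 morphants, against 5.3 ± 0.203 FPKM in control MO. The vessel marker kdrl stood at 3.19 ± 0.166 FPKM in the As2S2 morphants and 3.51 ± 0.599 FPKM in control MO and was not called (adjusted p = 0.17 in limma). Of 10 genes of neutrophils and macrophages 4 (40%) were higher and 2 (20%) lower, against 34.8% and 28% of all genes, or 2 and 4 without centring. The macrophage gene mfap4.1 stood at 4.06 ± 1.36 FPKM in the As2S2 morphants and 1.53 ± 0.517 FPKM in control MO. The neutrophil protease gene npsn stood at 0.89 ± 0.341 FPKM in the As2S2 morphants and 4.34 ± 0.222 FPKM in control MO.

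Genes of oxidative phosphorylation encoded in the nucleus fell more often than they rose. Of 79 tested, 4 were higher and 50 lower, with a median of -0.33. The complex I gene ndufc2 stood at 18.8 ± 1.2 FPKM in the As2S2 morphants and 61.6 ± 2.42 FPKM in control MO, and the ATP synthase gene atp5mc1 fell by 0.98. Of 13 genes encoded in the mitochondrion itself 5 (38.5%) were higher and 6 (46.2%) lower, against 34.8% and 28% of all genes. Without centring, 3 were higher and 8 lower. The cytochrome oxidase gene mt-co1 rose by 0.87, and the ATP synthase gene mt-atp6 fell by 0.76. Lysosomal genes were higher in 9 and lower in 19 of 39 cases, or 3 higher and 28 lower without centring, with the proton pump gene atp6v1ab at -1.14 and the protease gene ctsba at 1.02.

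Hox genes, which give cells their position along the body axis, differed by paralogue group, counted from head to tail. Of 41 Hox genes tested, 19 were higher and 21 lower, with a median of -0.29. In groups 1 to 8, 19 of 25 were higher and 5 lower, with a median of 0.46. In groups 9 to 12 all 16 were called lower, with a median of -1.05. The boundary between groups 8 and 9 was chosen after the values were seen, so the split is a description without a test. Without centring, 12 of the front 25 were higher and 6 lower, and all 16 rear genes were called lower. The rear gene hoxc12a, expressed at the tail end, had 0, 0.416 and 0.312 FPKM in the As2S2 morphants, against 15.8, 15.7 and 17.6 FPKM in control MO, with sf3b1 MO at 1.59, 2.08 and 2.4 FPKM. The 3 groups of libraries stood apart, the As2S2 morphants lowest (log2 fold change -3.53, SE 0.15, limma adjusted p = 5.5e-08). The genes hoxd10a and hoxc11a fell to 2.05 ± 0.0901 and 1.29 ± 0.462 FPKM in the As2S2 morphants, against 13.6 ± 0.551 and 9.53 ± 1.14 FPKM in control MO. At the front, the hindbrain gene hoxb1b rose to 20.5 ± 3.43 FPKM in the As2S2 morphants, against 10.8 ± 0.218 FPKM in control MO, and hoxc1a by 1.7. The brain marker otx2b was higher and most genes of the skeletal muscle and fin fold lists were lower, as were most of the opsin, phototransduction and lens lists, which are also of the head. The part of any of these in the split was not tested.

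**Figure D5:**
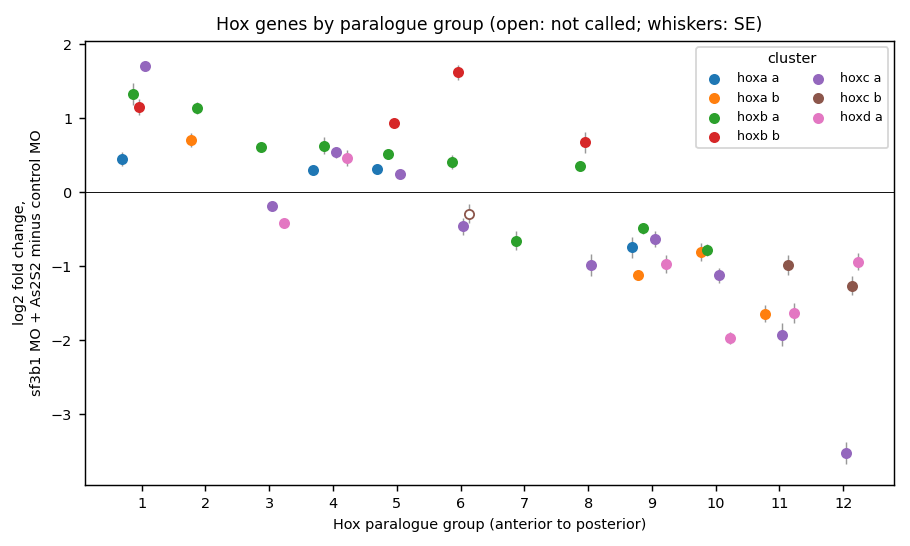
Log2 fold change, As2S2 morphants minus control MO, of 41 Hox genes by paralogue group, from anterior to posterior, coloured by cluster. Whiskers are standard errors and the open symbol was not called. The 16 genes of groups 9 to 12 all lie below 0, and the lowest is hoxc12a at -3.53.

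Clock genes drive daily rhythms through an activator arm and a repressor arm. Of 36 tested, 13 (36.1%) were higher and 15 (41.7%) lower, against 34.8% and 28% of all genes. Without centring, 11 were higher and 18 lower. The activator gene bmal1b had 7.6, 6.47 and 5.5 FPKM in the As2S2 morphants, against 1.76, 1.64 and 1.31 FPKM in control MO. Its repressor nr1d1 had 1.31, 0.997 and 0.96 FPKM in the As2S2 morphants, against 6.74, 6.61 and 6.18 FPKM in control MO. The groups of both genes did not overlap, and the changes were opposite, at 1.84 and -1.55. The light-induced genes per2 and cry1a averaged 4.57 ± 0.497 and 13.3 ± 0.795 FPKM in the As2S2 morphants, 19.6 ± 1.06 and 39.6 ± 1.35 FPKM in sf3b1 MO and 14.7 ± 0.346 and 29 ± 1.39 FPKM in control MO. The time of day at collection is not in the labels used here.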

How the data were processed

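The submitters sequenced RNA selected by its polyA tail, per the labels' protocols. The submitters' processing notes name fastp 0.22.0, DESeq2 and the assembly GRCz11. The aligner, the counting program and any joint normalization of the 9 libraries remain not stated in the sources used here. FPKM values are deposited by the authors for all 9 libraries in 1 table. The As2S2 columns hold values for 20146 genes or transcripts, and the columns of control MO and sf3b1 MO for 20723. Whole-number counts per gene were used only for the depth of control MO. Both the FPKM and these counts are deposited under headers that read wt, which were taken as control MO. 3 other count columns were not used. As the As2S2 columns come without counts, the As2S2 libraries have no known depth.

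Of 21137 lines, 14 were blank and 14 held text fragments. Of 21109 genes or transcripts, 19760 had values in all 9 libraries and 18013 had at least 1 FPKM in 3 or more. Without 16 rows left out (sf3b1, smad7, jun, sp1, tal1, alas2 and embryonic globins), 17997 were tested, 15554 of them with an Ensembl identifier and 2443 without one; 1279 were named through a table of gene names. Each library's log2(FPKM + 1) was centred on its median, and limma 3.58.1 (R 4.3.3) was fitted to all 9 libraries with a mean per group and a variance trend. P-values are Benjamini-Hochberg adjusted over all genes, with 0.05 as threshold. The fit was tested on simulated data. TMM factors came from edgeR 4.0.16.

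The genes compared, the 49 lists and the genes named were chosen with earlier results of these data known. Named are the 12 largest rises and falls among called genes of at least 4 FPKM on average whose libraries do not overlap, up to 4 called rises and 4 called falls per list among members of at least 2 FPKM, and cell type markers. The genes cahz, gata1a, hmox1a, mt2, rplp0 and smyhc1 were added after their values were seen. Alternatives were other scalings, another pseudocount, other filters, a fit of 6 libraries, a replicate block, no variance trend, and each replicate left out.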

Additional observations from a re-analysis of the deposited data

How the results depend on the processing

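Without centring, 3505 genes were called higher and 8736 lower in the As2S2 morphants against control MO, 634 and 1968 of them at least 2-fold, and 8546 of the 11311 calls kept their direction and call. In the same setting 3104 were called higher and 8017 lower against sf3b1 MO, 440 and 1269 of them at least 2-fold. With at least 5 FPKM in 3 libraries, 7529 of 10531 genes tested were called against control MO, compared with 11311 of 17997 in the main setting. With this filter 3839 were higher against control MO, 753 of them at least 2-fold, and 3511 were higher against sf3b1 MO. The drop in these counts follows the smaller number of genes tested, as the shares called were not lower. With 0.1 as pseudocount, which widens the fold changes of low genes, 2029 were at least 2-fold lower against control MO, and 1259 were at least 2-fold higher and 1485 lower against sf3b1 MO. With TMM scaling 10731 of the 11311 calls were kept. Leaving out 1 library of either group left 10397 to 10799 calls against control MO. Of 185 named genes followed through these settings, neurod1 alone changed direction, to -0.11 without centring. The numbers in the titles gave no sign of pairing. Same-numbered libraries deviated from their group means with correlations of -0.072 to 0.042, and differently numbered ones with -0.087 to 0.097. With 3 libraries per group, these values cannot exclude a pairing. With a replicate block 11115 genes were called against control MO, and all 185 named genes followed kept their call. As no counts are given for the As2S2 libraries, depth sets no limit that can be stated for genes listed at or near 0 there.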

Other observations

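Outside the lists, a linker histone gene and kinase and arrestin-like genes stood among the largest rises. They were chosen after their values were seen and get no test of their own as a group. The linker histone gene h1-10, whose product compacts nucleosomes, averaged 356 ± 9.29 FPKM in the As2S2 morphants, 107 ± 1.29 FPKM in sf3b1 MO and 38.8 ± 1.06 FPKM in control MO. The arrestin-like genes arrdc3a and arrdc3b averaged 85.5 ± 3.01 and 162 ± 2.39 FPKM in the As2S2 morphants and 18.4 ± 1.16 and 18.6 ± 1.17 FPKM in control MO. The kinase gene pim2 had 35.1, 36.4 and 34.7 FPKM in the As2S2 morphants, against 2.54, 2.53 and 2.57 FPKM in control MO, without overlap of the groups (log2 fold change 3.65, SE 0.0557, limma adjusted p = 8.2e-11). The kinase gene wnk1a averaged 24.8 ± 4.35 FPKM in the As2S2 morphants, 22.1 ± 2.72 FPKM in sf3b1 MO and 1.81 ± 0.22 FPKM in control MO, so the morphants with and without As2S2 stood close together. The oxygen sensor gene egln3, a target of hypoxia-inducible factors, rose by 3.04 on the log2 scale. Among regulators of the cell cycle, the inhibitor gene cdkn1a, known as p21, averaged 12 ± 0.929 FPKM in the As2S2 morphants, 2.42 ± 0.109 FPKM in sf3b1 MO and 4.85 ± 0.778 FPKM in control MO, the growth arrest gene gadd45ba rose by 1.73 and the ubiquitin ligase gene mdm2 by 1.67.

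Among falls outside the lists, the calsarcin gene myoz1b and the glycolysis genes gpib and pkmb, all of muscle, averaged 26.8 ± 0.867, 7.2 ± 0.712 and 24.4 ± 0.484 FPKM in the As2S2 morphants and 189.6 ± 7.14, 48.5 ± 1.43 and 151 ± 2.43 FPKM in control MO. The gene aep1 had 14.1, 15.1 and 12.4 FPKM in the As2S2 morphants, against 101, 102 and 107 FPKM in control MO, while sf3b1 MO had 13.9, 13.2 and 13.9 FPKM. The values of aep1 in sf3b1 MO lay within or next to those of the As2S2 morphants, and both lay far below control MO (log2 fold change -2.52, SE 0.0641, limma adjusted p = 2e-09). Of 2443 assembled transcripts without an Ensembl identifier, 866 were called higher and 551 lower. Over all genes tested, 34.8% were called higher and 28% lower. The median log2 fold change of these transcripts was 0.14, against 0.05 over all genes.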
